A study of Homo sapiens with 2 samples.

Results

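Keratins are the intermediate filament proteins of epithelial cells. A filament is built from a type I and a type II keratin in equal amounts, and which keratins a cell makes marks its lineage. In the breast, inner luminal cells carry KRT8, KRT18, KRT19 and KRT7, whereas the outer basal layer carries KRT5, KRT14 and KRT17. KRT81 and KRT86 are keratins of the hair shaft, and KRT80 is a type II keratin found in several epithelia. The genes described here were 10 keratin genes, of 25240 genes in the transcript tables. They were chosen by name with earlier results of these data known. They comprised 4 luminal keratins (KRT7, KRT8, KRT18 and KRT19) and 6 basal or hair keratins (KRT5, KRT15, KRT17, KRT80, KRT81 and KRT86). All 10 were present in both tables.

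The study set T47D cells carrying a hairpin that targets RON (shRON) against T47D cells carrying a non-targeting hairpin (shNT), with 1 RNA library in each group, to learn which transcripts differ once the receptor is reduced. T47D is an established luminal A breast cancer cell line, so both libraries describe 1 line and no normal basal cells. Both sets of cells were transduced, selected in 5 ug/mL puromycin, held in 1 ug/mL, and grown in high-glucose DMEM with 10% serum. RON is the receptor tyrosine kinase encoded by MST1R. The number of hairpins or clones was not stated. The name of the control table calls those cells wild type where the label gives a hairpin, and the label was followed.

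Levels are FPKM, fragments per kilobase of transcript scaled to the size of the library, summed over the transcripts of a gene. Because FPKM is per length, levels of different keratins may be compared within a library. The libraries held about 11600000 estimated fragments in shRON and 12200000 in shNT, and FPKM summed to 382330 in shRON and 398372 in shNT. MST1R, the target of the hairpin, stood at 9.10 FPKM in shRON and 12.1 FPKM in shNT, and 17.7% of measured genes had a lower log2 ratio than it. All 10 luminal breast markers on the list used to check the label reached 1 FPKM in both libraries, and of 12 basal or myoepithelial markers only ACTA2 did. Each group is a single library, so no difference has a replicate check or a test, and every value below describes these 2 libraries. Intervals are 95% and cover counting error only, from estimated fragments. In bulk RNA, fewer cells with a keratin and less of its RNA per cell cannot be told apart.

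Whether reads can tell keratins apart bears on the low values, so transcripts of the GENCODE annotation on GRCh37 were compared. Of all 100-base words in the KRT17 transcript, 0.353% also occurred in a transcript of another gene, and for KRT15, KRT19 and KRT80 the share was 0%. KRT17 and its neighbour KRT16 were identical at 79.5% of aligned coding bases. A coding stretch of each, chosen as the first within 1 exon whose identity was nearest to that of the whole coding sequence, shows how far they part. It lies in exon 1 of KRT17 (GRCh37, minus strand, chr17:39780478-39780567) and in exon 1 of KRT16 (minus strand, chr17:39768558-39768647). Capitals mark the 18 of 90 bases that differ.
KRT17: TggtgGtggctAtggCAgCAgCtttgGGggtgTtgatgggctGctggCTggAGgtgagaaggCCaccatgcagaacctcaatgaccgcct
KRT16: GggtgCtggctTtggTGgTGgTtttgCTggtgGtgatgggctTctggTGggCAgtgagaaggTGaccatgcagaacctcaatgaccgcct

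The hair keratins KRT81 and KRT86 were far closer, at 94.2% identity over aligned coding bases. Of the 100-base words of KRT81, 30.3% occurred elsewhere, against 32.03% for KRT86, so how reads were divided between them is uncertain. KRT5 shared 1.64% of its words, KRT8 7.12%, with transcripts of 4 pseudogenes, KRT7 8.32%, with its antisense gene, and KRT18 18.5%, over all annotated transcripts of KRT8, with no other gene sharing any. The transcript tables hold 1 KRT8 transcript, which does not overlap KRT18, and nothing in the labels says whether the libraries marked strand.

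The 4 luminal keratins were each lower in the shRON library, by 21.3% to 31.4%, while KRT15 and KRT17 of the basal group were several times higher from low levels. A gene was taken as measured at 1 FPKM or more in at least 1 library, and the log2 ratio compares FPKM + 1 of shRON with FPKM + 1 of shNT, which understates ratios of low genes. By a fixed size of 1.5-fold on this scale, 2 of the 10 keratins were higher, KRT15 and KRT17, and 0 were lower. Among all 12482 measured genes, 9.95% were at least 1.5-fold higher and 8.84% at least 1.5-fold lower. Both keratins also passed 2-fold, where 3.32% of measured genes were higher and 2.17% lower. Only 7 of the 10 keratins were measured, and KRT17 became so through the shRON library alone. The plot of the levels shows luminal and basal keratins on 1 axis.

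**Figure D1:**
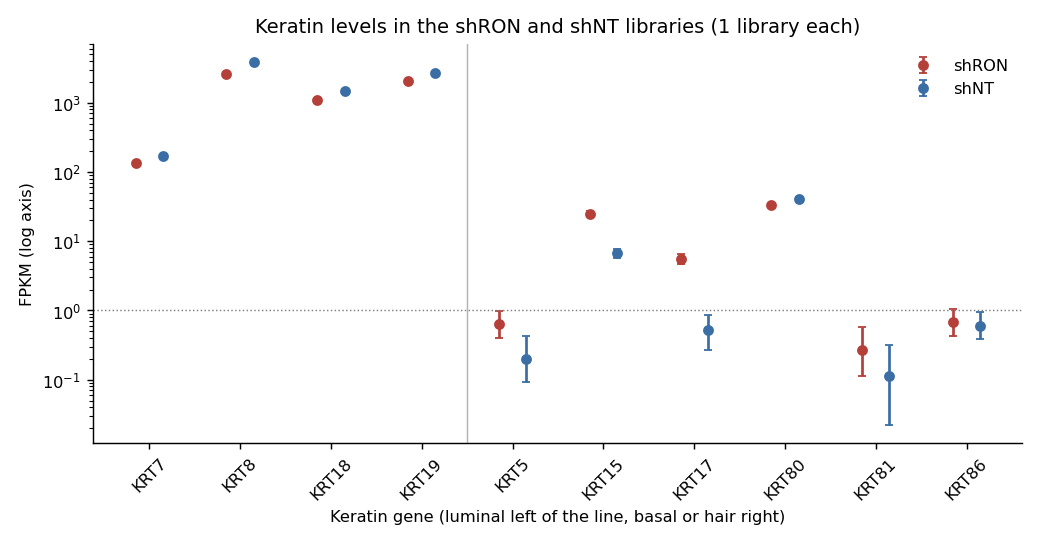
FPKM (log axis) of the 10 keratin genes in the shRON library (red) and the shNT library (blue), with bars for the 95% counting interval from estimated fragments. The luminal keratins lie at or above 136 FPKM in both libraries with shRON slightly below shNT, whereas KRT15 and KRT17 lie clearly higher in shRON. The dotted line marks 1 FPKM.

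KRT8, the type II keratin of simple epithelia, was at 2634 FPKM in shRON and 3839 FPKM in shNT. It had the highest FPKM of all genes in shNT and ranked 4 in shRON. Its ratio of FPKM was 0.686 (0.680 to 0.693) and its log2 ratio -0.54, the lowest among the 10. KRT8 lies at chr12:53290971-53298868 (hg19). Of all measured genes, 10.2% had a lower log2 ratio than KRT8.

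KRT18, the type I partner of KRT8, was at 1113 FPKM in shRON and 1465 FPKM in shNT. The ratio was 0.759 (0.747 to 0.772), a log2 ratio of -0.40. Its rank was 26 in shRON and 17 in shNT. KRT18 has 2 transcripts in the tables, and the main one held 95.3% of its FPKM in shRON and 94.9% in shNT. Both were lower in shRON, with log2 ratios of -0.39 for the main transcript and -0.50 for the other. The division of reads between them is an estimate. The gene is at chr12:53342655-53346685, 43.8 kb from KRT8.

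KRT19, a type I keratin without the usual tail domain, was at 2079 FPKM in shRON and 2719 FPKM in shNT. The ratio was 0.765 (0.755 to 0.774), a log2 ratio of -0.39. It ranked 8 in shRON and 4 in shNT. KRT19 lies in the type I cluster at chr17:39679869-39684641.

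KRT7, a type II keratin of ducts and other simple epithelia, was at 136 FPKM in shRON and 172 FPKM in shNT. The ratio was 0.787 (0.752 to 0.824), a log2 ratio of -0.34, and the gene is at chr12:52626954-52642709. None of the luminal keratins reached 1.5-fold, and their log2 ratios spanned -0.54 to -0.34 with a median of -0.39. The median of all measured genes was 0.04.

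Abundant genes in general were lower in the shRON library, and the luminal keratins are among the most abundant. Of 588 genes whose mean of log2(FPKM + 1) was at or above that of 100 FPKM, 65.1% had log2 ratios below 0. Apart from the keratins their median was -0.13. Of all 12482 measured genes, 5749 had log2 ratios below 0. Among these 588 genes, 14.1% had a lower log2 ratio than KRT8 and 29.6% a lower one than KRT7. The running median at the levels of the 4 luminal keratins was between -0.15 and -0.12, so each of them lay below it. The part of this trend in the keratin ratios was not tested.

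**Figure D2:**
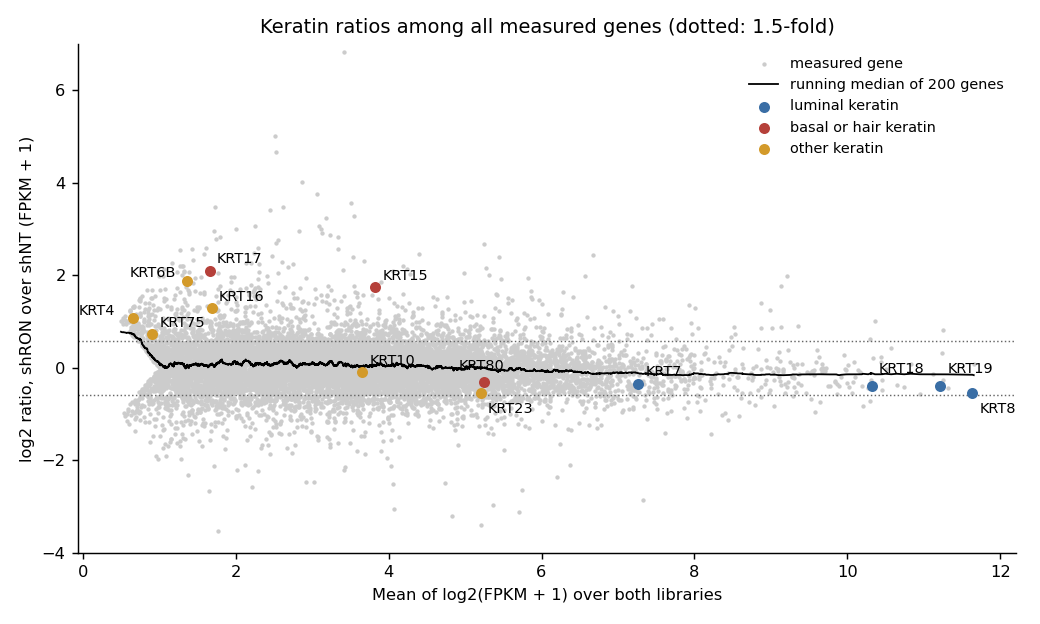
The log2 ratio of shRON over shNT (FPKM + 1) against the mean of log2(FPKM + 1) over both libraries, for 12482 measured genes (grey), with the measured keratins named and a running median of 200 genes (black). KRT8, KRT18, KRT19 and KRT7 lie below the running median at the abundant end, between -0.54 and -0.34, and KRT15 and KRT17 lie far above it. The running median turns upward at the lowest levels, where a gene needs 1 FPKM in at least 1 library to be plotted.

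KRT15, a type I keratin of basal cells and of the hair follicle bulge, was at 24.9 FPKM in shRON and 6.72 FPKM in shNT. About 676 fragments in shRON and 186 in shNT stood behind these values. The ratio was 3.71 (3.15 to 4.39), a log2 ratio of 1.75, and 0.745% of measured genes had a higher one. KRT15 reached 1 FPKM in both libraries, so the filter did not turn on 1 library. Its level in shRON was 1.20% of that of KRT19 in the same library, against 0.247% in shNT.

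KRT17, a type I keratin of basal cells that is also induced in wounded skin, was at 5.54 FPKM in shRON and 0.523 FPKM in shNT. The estimated fragments were 131 in shRON and 13 in shNT. The ratio was 10.6 (5.98 to 20.4), a log2 ratio of 2.10, and 0.433% of measured genes had a higher one. With a pseudocount of 5 FPKM in place of 1 the log2 ratio was 0.93, and with 0.1 it was 3.18. KRT17 lies at chr17:39775692-39780882.

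KRT80 went with the luminal group. It was at 32.97 FPKM in shRON and 41.3 FPKM in shNT, a ratio of 0.799 (0.752 to 0.849) and a log2 ratio of -0.32. Its 2 transcripts differed: the shorter one was at 21.7 FPKM in shRON and 24.0 FPKM in shNT, and the longer one at 11.3 FPKM in shRON and 17.2 FPKM in shNT. The longer transcript held 34.2% of the gene's FPKM in shRON and 41.8% in shNT. Both transcripts cover the same interval, chr12:52562780-52585784, and Cufflinks estimates how reads are divided between them.

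KRT5, the type II keratin of basal cells, stayed under 1 FPKM in both libraries. It was at 0.642 FPKM in shRON and 0.202 FPKM in shNT, from about 21 fragments in shRON and 8 in shNT. The ratio was 3.18 (1.35 to 8.31) and the log2 ratio 0.45, which was -0.33 once the running median at its level was subtracted. KRT14, the usual type I partner of KRT5, was listed at 0 in shRON and at 0.0381 FPKM in shNT.

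The hair keratins were at the edge of detection. KRT81 was at 0.270 FPKM in shRON and 0.115 FPKM in shNT, from about 7 fragments in shRON and 3 in shNT, with a ratio of 2.35 (0.538 to 14.1). KRT86 was at 0.685 FPKM in shRON and 0.605 FPKM in shNT, from about 22 fragments in shRON and 21 in shNT, with a ratio of 1.13 (0.594 to 2.16). Both intervals include 1, so no difference was detectable at this depth, and the sequence they share adds to the uncertainty.

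The order of levels in shRON was KRT8, KRT19, KRT18, KRT7, KRT80, KRT15, KRT17, KRT86, KRT5 and KRT81. In shNT it was the same down to KRT15, after which KRT86 stood above KRT17. The counting intervals of KRT86 and KRT5 overlapped in shRON (0.430 to 1.04 FPKM and 0.394 to 0.973 FPKM), as did those of KRT5 and KRT81 (0.113 to 0.578 FPKM for KRT81). In shNT those of KRT86 and KRT17 overlapped (0.382 to 0.944 FPKM and 0.270 to 0.868 FPKM), as did those of KRT5 and KRT81 (0.0922 to 0.421 FPKM and 0.0221 to 0.313 FPKM). All other neighbours in each order had separate intervals, except KRT17 and KRT5 in shNT, whose intervals also met.

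Set against each other, the luminal keratins summed to 5962 FPKM in shRON and 8196 FPKM in shNT, and the basal or hair keratins to 65.0 FPKM in shRON and 49.4 FPKM in shNT. The luminal keratins held 98.9% of the summed FPKM of the 10 genes in shRON and 99.4% in shNT. The basal or hair share was thus 1.08% in shRON and 0.599% in shNT. Without KRT80, the basal or hair keratins summed to 32.1 FPKM in shRON and 8.16 FPKM in shNT. The median log2 ratio of the basal or hair keratins was 1.75 over the 3 measured (KRT15, KRT17 and KRT80) and 0.32 over all 6. The difference of medians, basal or hair minus luminal, was accordingly 2.14 over measured genes and 0.71 over all 10. The first value rests on a filter that KRT17 passed through shRON alone.

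As sums, type II keratins were lower by more than type I keratins, and KRT8 held most of the type II sum. The other measured type II members, KRT7 (ratio 0.787) and KRT80 (0.799), were lower by less than the type I keratins KRT18 (0.759) and KRT19 (0.765). Among the 10 genes, type II keratins summed to 2804 FPKM in shRON and 4053 FPKM in shNT, and type I keratins to 3222 FPKM in shRON and 4192 FPKM in shNT. The ratio of type II to type I was 0.870 in shRON and 0.967 in shNT. KRT8 over KRT18 was 2.37 in shRON and 2.62 in shNT, whereas KRT19 over KRT18 was 1.87 in shRON and 1.86 in shNT. KRT8 made up 43.3% of all keratin FPKM in shRON and 46.2% in shNT. All keratin genes together took 1.59% of the FPKM of the library in shRON and 2.08% in shNT.

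The tables hold 45 further keratin genes, of which 6 were measured, and 21 were listed at 0 in both libraries. Of these 6, 4 were at least 1.5-fold higher and 0 lower, but KRT6B, KRT75 and KRT4 reached 1 FPKM in shRON alone. Over all measured genes, 9.95% were higher and 8.84% lower by that size. KRT6B, which pairs with KRT16 and KRT17 in wounded and hair follicle epithelium, was at 3.95 FPKM in shRON and 0.342 FPKM in shNT, a ratio of 11.6 (6.39 to 22.9). KRT16 was at 4.03 FPKM in shRON and 1.06 FPKM in shNT, a ratio of 3.79 (2.48 to 5.98). KRT6B, KRT16 and KRT17 together summed to 13.5 FPKM in shRON and 1.93 FPKM in shNT. This sum leaves out KRT6A and KRT6C and was not among the planned lists. Each of its genes was higher in shRON, so its direction follows from the choice. KRT6B shared 24.4% of its 100-base words with other genes, mostly KRT6C, so its reads may be divided among relatives. KRT6C was at 0.165 FPKM in shRON and 0 in shNT, and KRT6A at 0.159 FPKM in shRON and 0.183 FPKM in shNT. KRT16 shared 7.12% of its words with 3 other genes, 2 of them pseudogenes.

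KRT4, a type II keratin of mucosal epithelium, was at 1.29 FPKM in shRON and 0.0904 FPKM in shNT, from about 47 fragments in shRON and 4 in shNT. KRT75, a hair follicle keratin, was at 1.42 FPKM in shRON and 0.456 FPKM in shNT, a ratio of 3.11 (1.67 to 6.15). The more abundant KRT23, a type I keratin, was at 29.4 FPKM in shRON and 43.6 FPKM in shNT, a log2 ratio of -0.55 that lay just inside 1.5-fold. KRT10, the type I keratin of differentiated epidermis, was at 11.2 FPKM in shRON and 11.97 FPKM in shNT, a ratio of 0.933 whose interval of 0.802 to 1.08 includes 1.

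Most keratin genes sit in 2 clusters, type II genes and KRT18 on chromosome 12 and the other type I genes on chromosome 17. Genes around both clusters were mostly lower in shRON, whereas of all 12482 measured genes 5749 had log2 ratios below 0. Of the 20 nearest measured genes outside the chromosome 12 cluster, 10 on either side and with no gene whose symbol starts with KRT, 16 had log2 ratios below 0, with a median of -0.28. Of the 20 around KRT19 on chromosome 17, 18 were below 0, with a median of -0.32. Relative to these medians KRT7 was at -0.06, KRT19 at -0.07, KRT80 at -0.03, KRT18 at -0.11 and KRT8 at -0.26. The part of this neighbourhood in the luminal ratios was not tested.

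KRT15 and KRT17 differed from their neighbourhood in direction. KRT15 (chr17:39669997-39675270) ends 4.60 kb from KRT19, yet its log2 ratio was 1.75 and that of KRT19 -0.39. KRT16 and KRT17, 6.61 kb apart, were both higher. Relative to the regional median KRT15 was at 2.07 and KRT17 at 2.42. On chromosome 12, KRT6B (2.17), KRT4 (1.35) and KRT75 (1.02) also lay above their regional median, and each reached 1 FPKM in shRON alone.

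**Figure D3:**
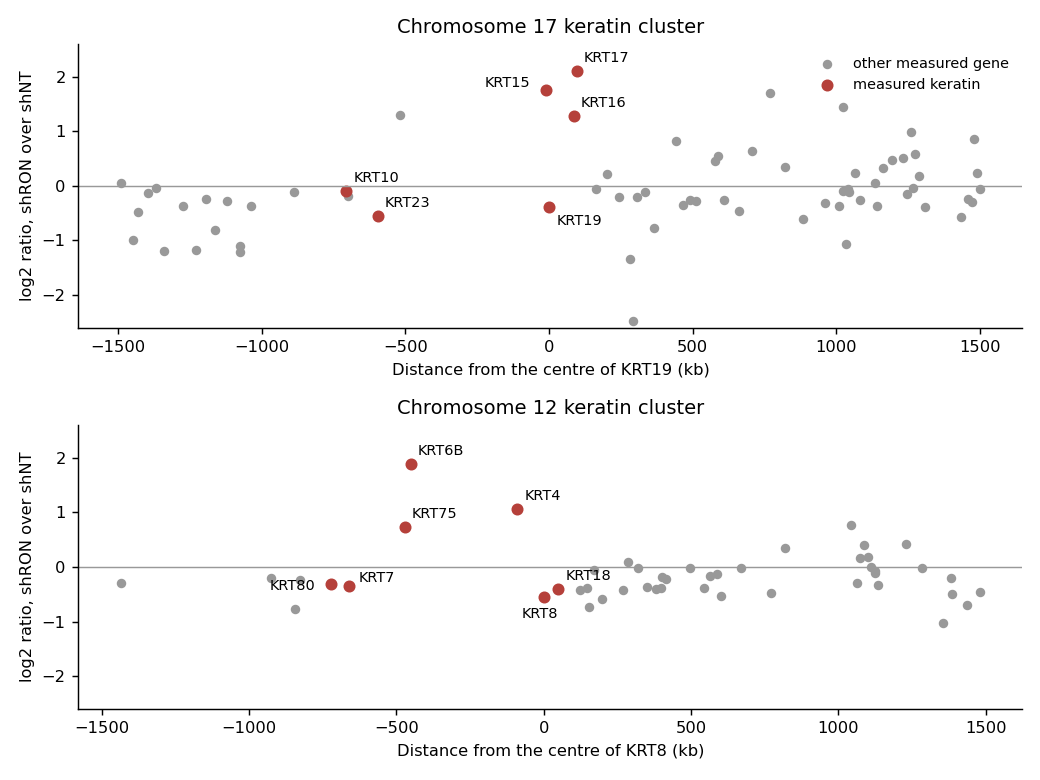
The log2 ratio of shRON over shNT (FPKM + 1) of measured genes around the keratin cluster of chromosome 17 (upper panel) and chromosome 12 (lower panel), by distance in kb from the centre of KRT19 or KRT8. Keratins are red and other genes, keratin-associated protein genes included, grey. KRT15, KRT16 and KRT17 lie above 1 close to KRT19 at -0.39. In the lower panel KRT8, KRT18, KRT7 and KRT80 lie near their grey neighbours below 0, whereas KRT6B, KRT75 and KRT4 lie above 0.

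Keratin filaments are anchored at desmosomes and hemidesmosomes, and the genes of these junctions went both ways. Of 14 desmosome genes 8 were measured, and 1 was at least 1.5-fold higher and 0 lower, with a median log2 ratio of 0.03. The shares over all measured genes, for this and the lists that follow, were 9.95% higher and 8.84% lower. The desmosomal cadherin gene DSC2 was at 10.4 FPKM in shRON and 4.82 FPKM in shNT, a log2 ratio of 0.97. Of 13 hemidesmosome and plakin genes, 12 were measured, and 2 were higher and 1 lower by that size (median -0.12). The higher genes were EPPK1, which encodes the keratin-binding epiplakin (20.8 FPKM in shRON and 11.8 FPKM in shNT), and the integrin gene ITGA6 (6.31 FPKM in shRON and 3.85 FPKM in shNT). The laminin gene LAMA3 was lower, at 0.991 FPKM in shRON and 2.12 FPKM in shNT, so it passed the filter through shNT alone.

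Vimentin, lamins and neurofilaments belong to the same superfamily as keratins. Of 15 such genes 6 were measured, 0 were at least 1.5-fold higher and 1 was lower, with a median of -0.22. PRPH, which encodes the neuronal filament protein peripherin, was the lower one, at 0.229 FPKM in shRON and 3.80 FPKM in shNT. It passed the filter through shNT alone. The mesenchymal filament gene VIM stayed under 1 FPKM, at 0.509 FPKM in shRON and 0.0988 FPKM in shNT. A list of keratin partners and turnover held 16 genes, not all of which encode keratin-binding proteins. All 16 were measured, and 0 were higher and 1 lower (median 0.01). TRADD, an adaptor of the TNF receptor that binds KRT18, was at 11.5 FPKM in shRON and 19.2 FPKM in shNT.

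Epithelial transcription factors linked to keratin genes were also listed, and some were known to differ in these libraries when the list was made. Of 18 listed 17 were measured, 15 of them in both libraries, and 7 were at least 1.5-fold higher and 1, ESR1, lower, with a median of 0.27. KLF5 was at 6.28 FPKM in shRON and 1.02 FPKM in shNT (log2 ratio 1.85), and KLF4 at 17.96 FPKM in shRON and 8.17 FPKM in shNT (1.05). ELF3 was at 41.7 FPKM in shRON and 16.6 FPKM in shNT (1.28). TFAP2B was at 3.94 FPKM in shRON and 0.0248 FPKM in shNT, where about 2 fragments stood behind it, so it passed the filter through shRON alone and its ratio has an interval of 43.6 to 1317. TP63, which encodes the basal-cell factor p63, stayed under 1 FPKM, at 0.698 FPKM in shRON and 0.125 FPKM in shNT.

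Of 16 cornified envelope and squamous genes 7 were measured, and 4 of these were at least 1.5-fold higher, 0 lower. Only 4 of the 7 reached 1 FPKM in both libraries, and the median log2 ratio was 0.63 over the 7 and 0.24 over all 16. S100A8, a calcium-binding protein gene of stressed epithelium, was at 96.6 FPKM in shRON and 34.0 FPKM in shNT (log2 ratio 1.48). S100A7 was at 3.5002 FPKM in shRON and 1.27 FPKM in shNT (0.99). IVL, which encodes involucrin of the cornified envelope, was at 1.79 FPKM in shRON and 0.805 FPKM in shNT, and SPRR3 at 1.33 FPKM in shRON and 0.272 FPKM in shNT, so both passed the filter through shRON alone, as did SPRR1A (1.20 FPKM in shRON and 0.647 FPKM in shNT). LOR and KRTDAP, markers of the differentiated epidermis, were listed at 0 in both libraries. The part of other cell types in the keratin values was not tested. Of the 12 basal or myoepithelial markers 3 were measured, and the list summed to 14.8 FPKM in shRON and 9.83 FPKM in shNT. Of the 3 measured, 2 had log2 ratios above 0 (KRT6B and EGFR), and both passed the filter through shRON alone. ACTA2 was below 0, at 6.14 FPKM in shRON and 7.25 FPKM in shNT. MME was listed at 0 in both libraries, CNN1 was at 0.117 FPKM in shRON and at 0 in shNT, and the list includes KRT6B. EGFR on that list, the receptor of epidermal growth factor, was at 2.11 FPKM in shRON and 0.959 FPKM in shNT. Luminal markers summed to 1926 FPKM in shRON and 2116 FPKM in shNT. Of the 10, 1 (MLPH) was at least 1.5-fold higher and 4 (PGR, AGR2, CDH1 and ESR1) lower. By sign, 6 of the 10 were above 0 and 4 below. Their median log2 ratio was 0.03, against 0.04 over all measured genes. Of 6 markers each, 2 were measured for fibroblasts (sums of 5.86 FPKM in shRON and 4.14 FPKM in shNT), 1 for immune cells (5.84 FPKM in shRON and 1.38 FPKM in shNT) and 1 for endothelium (7.81 FPKM in shRON and 7.51 FPKM in shNT). CD68, the immune marker measured, was at 5.84 FPKM in shRON and 1.37 FPKM in shNT, a ratio of 4.28 (2.97 to 6.30). The fibroblast collagen gene COL3A1 was at 1.53 FPKM in shRON and 0.0103 FPKM in shNT, from about 124 fragments in shRON and 1 in shNT. CD68 and COL3A1 were higher in shRON, as were KRT15 and KRT17. COL1A1, the other measured fibroblast marker, was at 4.27 FPKM in shRON and 3.95 FPKM in shNT. The remaining 4 fibroblast markers stayed under 1 FPKM in both libraries. Both libraries listed 4 immune markers (PTPRC, CD3E, LYZ and TYROBP) at 0.

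**Figure D4:**
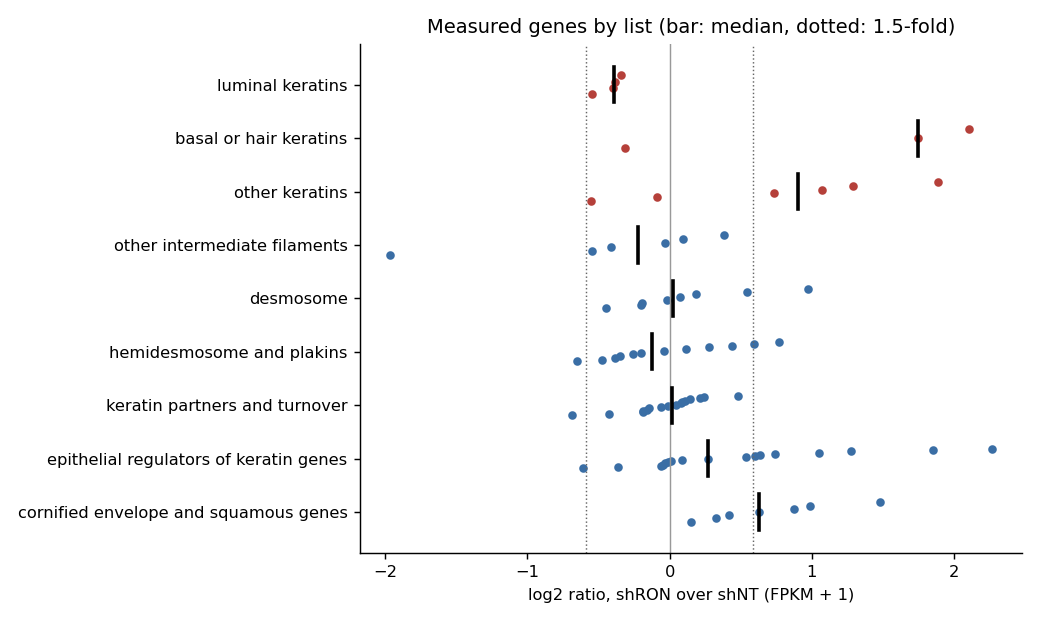
The log2 ratio of shRON over shNT (FPKM + 1) of each measured gene, by list, with keratins in red, other genes in blue and a black bar at the median. The luminal keratins fall between -0.54 and -0.34, while KRT15 and KRT17 lie at 1.75 and 2.10 and most desmosome, hemidesmosome and partner genes lie within 1.5-fold (dotted lines).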

How the data were processed

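RNA of 2 T47D libraries was sequenced from TruSeq preparations. The authors deposited FPKM values for 37839 RefSeq transcripts per library as Cufflinks tracking tables (per the file headers), on hg19 per the submitters' processing notes, which also name DESeq without a role. The deposited coverage was read as mean read depth over a transcript. Aligner and Cufflinks version were not given in the sources used here. FPKM was summed per gene, and genes at 1 FPKM or more in at least 1 library, other than small RNA genes, were kept. Fragments were estimated as coverage times length over the median bases of a read pair (238 bases in shRON, 238 in shNT, itself an estimate), and gave exact (Clopper-Pearson) intervals of ratios and exact Poisson intervals of levels. The computation of ratios and intervals was checked on simulated fragment counts, which does not check the estimate of fragments. Whole reads were not recovered, so no count test was run. Members and lists were chosen with earlier results of these data known. Named were all members, other measured keratins and, per list, up to 4 genes at 1.5-fold or more by size of log2 ratio. KRT5, KRT14, KRT6A, VIM, TP63, LOR, KRTDAP and MME beyond that were named after their values were seen. So were CNN1, ACTA2, COL1A1, ESR1, SPRR1A and the immune markers at 0. Analyses used Python 3.11.15, pandas 2.3.3 and scipy 1.17.1.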

Additional observations from a re-analysis of the deposited data

How the results depend on the processing

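KRT7, KRT8, KRT18, KRT19, KRT80, KRT15 and KRT17 kept their sign under all 12 alternatives. Of these alternatives, 2 (the trend removed and transcripts marked FAIL left out) were chosen after seeing the data. KRT15 ranged over 1.35 to 2.07 and KRT17 over 0.93 to 3.18 in log2 ratio, and both stayed past 1.5-fold, whereas KRT8 ranged over -0.58 to -0.26. KRT5 (-0.33), KRT81 (-0.59) and KRT86 (-0.57) were below 0 with the trend removed and above 0 otherwise; all 3 lie under 1 FPKM, where the running median rests on genes that passed the filter. KRT5 also passed 1.5-fold with a pseudocount of 0.1 (1.30), scaled to TPM (0.83) and with the regional median subtracted (0.73). KRT81 passed it upward with a pseudocount of 0.1 (0.79) and downward with the trend removed. The luminal median of -0.39 was -0.37 from coverage, -0.33 scaled to TPM, -0.43 with the median of all genes subtracted, -0.26 with the trend removed and -0.091 after subtraction of regional medians. The basal or hair median of 1.75 was 0.93 with a pseudocount of 5, 0.32 with no filter, 0.83 scaled to TPM, where 5 of the 6 were measured, and 2.07 with regional medians subtracted. The difference of medians of 2.14 was 1.32 with a pseudocount of 5, 0.71 with no filter and 1.16 scaled to TPM. The luminal share of summed FPKM was 99.1% in shRON and 99.6% in shNT with the most abundant transcript only. At 2-fold, 415 measured genes were higher and 271 lower. These counts were 696 and 490 with a pseudocount of 0.1, 145 and 84 with a pseudocount of 5, and 798 and 417 scaled to TPM, while 269 were higher at 5 FPKM or more. The 1242 and 1104 genes at 1.5-fold were 518 and 465 with a pseudocount of 5, 2057 were higher scaled to TPM and 798 at 5 FPKM or more. The causes were not tested, except that pseudocounts and filters act on low values by construction. Depth limits KRT5, KRT81 and KRT86, which rest on 22 or fewer estimated fragments per library. No paired analysis was possible because each group has 1 library.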

Other observations

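Keratin-associated proteins cross-link hair keratins, and their genes were nearly silent in both libraries. Of 87 such genes in the tables, 78 were listed at 0 in both, and 3 reached 1 FPKM in shRON against 1 in shNT. These 3, named after their values were seen, were KRTAP5-2 (3.80 FPKM in shRON and 1.30 FPKM in shNT, a ratio of 2.93 with a counting interval of 1.77 to 5.01), KRTAP5-1 (1.71 FPKM in shRON and 0.615 FPKM in shNT, 2.79 with 1.20 to 6.99) and KRTAP3-1 (1.87 FPKM in shRON and 0.164 FPKM in shNT, 11.4 with 2.70 to 102). KRTAP3-1 lies within the chromosome 17 keratin cluster and KRTAP5-1 and KRTAP5-2 on chromosome 11. About 2 fragments in shNT stood behind KRTAP3-1. KRTAP5 genes resemble one another, so the division of reads between them is uncertain.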
